A study of Homo sapiens with 6 samples.

Results

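The 10 genes described here belong to the machinery that licenses and copies DNA: the helicase genes MCM2, MCM3, MCM4, MCM5, MCM6 and MCM7, the replication factors MCM10, CDC6 and PCNA, and the transcription factor gene E2F1. They were chosen by function, with earlier results of these data known. Each was represented by the chromatin within 5 kb of 1 transcription start site (TSS) on hg19. That window held 35 of the 53454 H3K4me3 intervals called in metformin-treated cells and 27 of the 50585 called in control cells. It held none of the 85952 H3K27me3 intervals of treated cells or the 85579 of control cells.

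The cells came from the established human line H1299, derived from non-small cell lung cancer, and were grown in serum-supplemented medium either with 5 mM metformin, a drug for type 2 diabetes that acts on mitochondrial respiration, or without it. No label gives the length of treatment. Each mark was profiled by chromatin immunoprecipitation and sequencing (ChIP-seq) of formaldehyde-fixed, micrococcal nuclease-cut chromatin, with 1 library per mark and condition, so values below carry no replicate error and no test between conditions was possible. Gene positions on hg19 were at hand for these 10 genes only, so other replication genes and markers of the line itself were not analysed here.

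The MCM2 to MCM7 proteins form a ring that is loaded onto origins in G1 phase with the help of CDC6 and becomes the motor of the replication helicase. MCM10 takes part in switching the loaded ring on, and PCNA is the sliding clamp that holds DNA polymerases on their template. E2F1 binds promoters of many S phase genes, its own included, and is held in check by the retinoblastoma protein. H3K4me3, trimethylated lysine 4 of histone H3, marks promoters of active genes, and H3K27me3 is the repressive mark laid down by Polycomb complexes.

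Promoter sequence was taken from RefSeq (GRCh38.p14), which held entries for 8 of the 10 genes, all but MCM4 and MCM5. The 180 bases before the start are shown for 4 of the genes in which a match to TTTNNCGC, an E2F type motif, was found. They are written 5′ to 3′ on the strand of the gene, with capitals marking matches on either strand. They are MCM3 (chr6:52284743-52284922, minus strand), MCM6 (chr2:135876444-135876623, minus), PCNA (chr20:5126623-5126802, minus, the outermost of its 2 entries) and E2F1 (chr20:33686386-33686565, minus).
MCM3: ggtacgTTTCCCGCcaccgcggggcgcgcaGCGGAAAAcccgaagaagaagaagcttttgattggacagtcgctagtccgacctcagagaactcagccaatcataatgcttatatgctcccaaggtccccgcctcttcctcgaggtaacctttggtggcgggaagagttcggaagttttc
MCM6: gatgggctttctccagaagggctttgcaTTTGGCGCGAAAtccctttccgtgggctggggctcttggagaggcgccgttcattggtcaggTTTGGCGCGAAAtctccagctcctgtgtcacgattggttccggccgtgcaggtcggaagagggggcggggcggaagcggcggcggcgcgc
PCNA: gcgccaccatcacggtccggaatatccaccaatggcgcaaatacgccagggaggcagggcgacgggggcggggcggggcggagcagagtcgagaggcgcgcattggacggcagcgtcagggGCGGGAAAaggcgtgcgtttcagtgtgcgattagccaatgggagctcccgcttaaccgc
E2F1: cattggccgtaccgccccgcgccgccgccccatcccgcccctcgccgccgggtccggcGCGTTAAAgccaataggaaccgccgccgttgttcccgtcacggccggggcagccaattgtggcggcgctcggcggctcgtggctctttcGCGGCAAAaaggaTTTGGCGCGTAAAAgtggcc

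In the 250 bases before the start, TTTNNCGC was found on either strand in 5 of the 8 genes (MCM3, MCM6, MCM7, PCNA and E2F1), against 5.92% of 35116 RefSeq promoters of the same length. A gene counted if any of its entries held the motif, which gave MCM7 3 and PCNA 2 chances. In MCM6 the run TTTGGCGCGAAA, in which matches on the 2 strands overlap by 4 bases, stood at 2 places, beginning 152 and 90 bases before the start. In E2F1 the matches began 122, 33, 20 and 14 bases before it, the last 2 overlapping each other. CCAAT, the NF-Y motif, was found in 7 of the 8 genes against 32.0% of promoters, GGGCGG, an SP1 type motif, in 6 against 42.6%, and TTTGAA, a cell cycle homology region (CHR) type motif, in 0 against 13.3%. The base composition of the member promoters, from 55.6% to 72.4% G and C against a median of 58.0% over all, was not matched in these shares. A match describes these letters and is not a binding site.

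All 10 genes had H3K4me3 intervals over the TSS or at most 288 bp from it in both conditions, and none had H3K27me3 within 5 kb. The usual form was a pair of intervals, the longer most often on the transcribed side and the other upstream, with a short gap between them at the TSS itself. Summed over the 10 windows, H3K4me3 covered 40.0 kb in treated cells and 36.1 kb in control cells, 1.11 times as much. The same ratio was 1.10 over 39654 windows of the same size centred on H3K4me3 sites across the genome that reached a deposited value of 10 or more in both lists, and 1.13 over all 60108 such windows. The deposited value, read as a −log10 q, describes or ranks an interval within its own list only. All 10 genes passed the limit of 10, but their windows were centred on a TSS and not on a site.

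**Figure D1:**
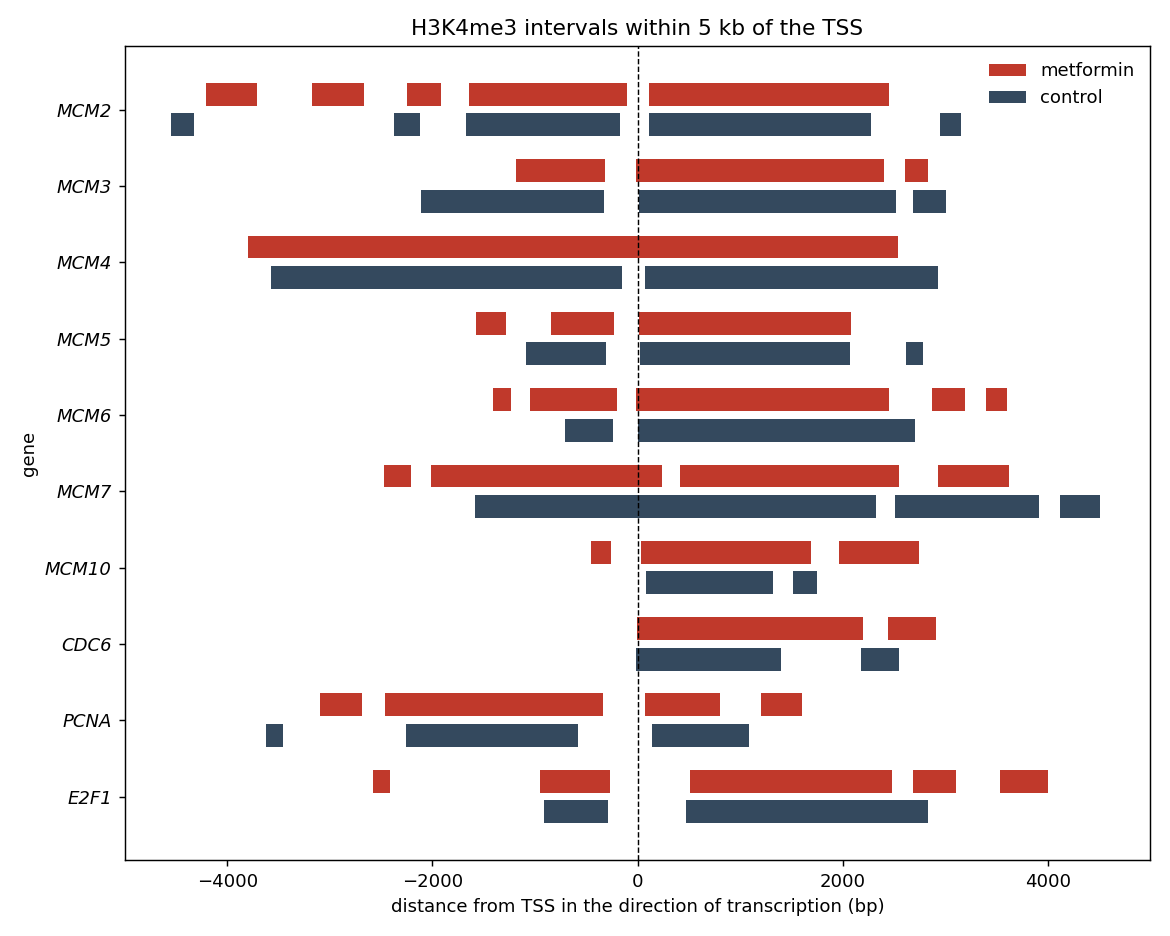
H3K4me3 intervals around each TSS, with the distance from the TSS in bp along the direction of transcription on the horizontal axis and metformin (upper bar) over control (lower bar) for each of the 10 genes. Most genes show 2 main intervals that meet near 0, MCM4 has 1 unbroken interval of 6337 bp in treated cells, and CDC6 and MCM10 have little upstream of the TSS.

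Coverage was larger in treated cells at 7 genes and smaller at 3. It was larger in 67.4% of the windows with values of 10 or more and in 66.7% of all windows, so the 7 of 10 genes are near those shares. At 4 of 10 genes it was at least 25% higher with metformin (MCM6, MCM10, CDC6 and PCNA), as it was in 27.8% of the windows with values of 10 or more and 36.5% of all windows. At MCM3, 1 of 10 genes, it was at least 20% lower, against 5.36% and 12.2% of windows. The counts of genes are too few to set them apart from these shares. The median ratio over the 10 genes was 1.22, against 1.09 over the windows with values of 10 or more. That median counts all deposited intervals within 5 kb and was not tabulated for other settings. With intervals of a deposited value of 5 or more, the ratio fell at MCM5, MCM6, MCM7, MCM10, PCNA and E2F1. It rose at MCM2 and CDC6 and was unchanged at MCM3 and MCM4. The ratio of the summed lengths, 1.11 in this setting, was 1.07 within 2 kb and 1.01 with intervals of a deposited value of 5 or more. No difference from the windows is read from the median.

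In the sum over the 10 genes, the net difference lay in intervals of low value. Intervals with a deposited value under 5 numbered 14 in treated and 7 in control cells and spanned 5.38 kb and 1.60 kb. Intervals of 5 or more numbered 21 and 20 and spanned 34.7 kb and 34.5 kb, which left a ratio of 1.01, where the windows with values of 10 or more, counted in the same way, gave 1.11. Single genes still differed at that limit, in both directions: MCM2, MCM10 and CDC6 were covered over more sequence in treated cells and MCM3 and MCM7 over less. At MCM2 the length in intervals of 5 or more was 4874 bp in treated and 3667 bp in control cells, and at MCM7 it was 4383 bp and 5687 bp. The same limit was put on both lists, although the value ranks intervals within 1 list only. It can drop a separate interval of 1 list that lies inside a longer interval of the other. At MCM7 a treated interval of 689 bp with a value of 4.34 lay wholly inside a control interval of 1397 bp with a value of 8.62. Of the intervals under 5, the other condition's list overlapped 4 of 14 in treated cells (28.6%, 8.39 to 58.1) and 3 of 7 in control cells (42.9%, 9.90 to 81.6), against 37.3% and 54.4% of all such intervals of each list, which lie within these exact Clopper-Pearson 95% intervals. The control list overlapped 22 of the 35 intervals of treated cells (62.9%, exact Clopper-Pearson 95% interval 44.9 to 78.5, counting error only), against 67.3% over the whole list. The metformin list overlapped 22 of the 27 intervals of control cells (81.5%, 61.9 to 93.7), against 77.3% over the whole list. Both shares held the whole-list value within their intervals. Several of the counted H3K4me3 intervals came from the same gene and are not independent. The Clopper-Pearson ranges treat them as if they were, so no likeness to the whole lists is read from them.

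**Figure D2:**
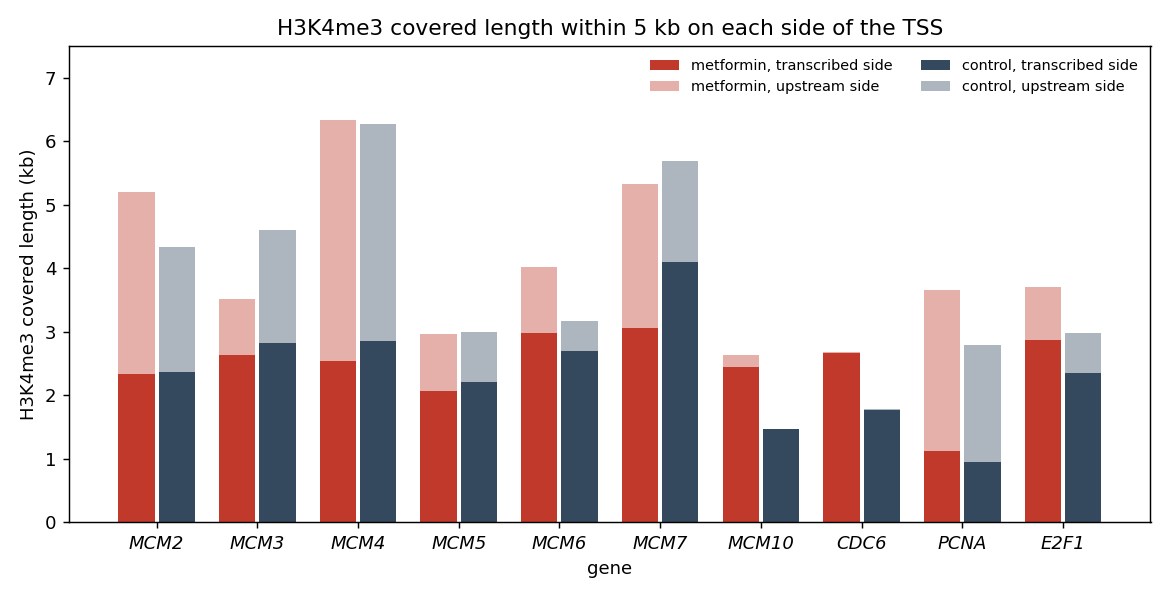
H3K4me3 covered length in kb within 5 kb of each TSS, with metformin left of control for each gene, full colour for the transcribed side and pale colour for the upstream side. MCM4 has the tallest bars, with over 6 kb in both conditions, and MCM10 the shortest, at 2635 bp with metformin and 1475 bp in control.

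Among the helicase ring genes, MCM4 had the largest covered length and the highest value of H3K4me3 in both conditions. Its TSS (chr8:48873453) lay inside 1 interval of 6337 bp with 18 sub-peaks in treated cells (chr8:48869656-48875992). Control cells had 2 intervals there, of 3421 and 2853 bp, set apart by 226 bp and holding 10 and 8 sub-peaks. Covered length was 6337 bp against 6274 bp, so the intervals were joined in treated cells with nearly the same sequence covered. The highest value in the window exceeded 98.6% of the metformin list and 99.5% of the control list, and 3797 bp and 3421 bp lay upstream, on the side of PRKDC, the gene of the DNA-dependent protein kinase, which is transcribed in the opposite direction.

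MCM7 showed the opposite division. In control cells its TSS (chr7:99699427) lay in 1 interval of 3905 bp with 11 sub-peaks. In treated cells the sequence was split into 2 intervals of 2132 and 2251 bp by a gap of 179 bp. That gap ran from 236 to 416 bp inside the gene, and the TSS itself stayed covered. AP4M1, a subunit gene of an adaptor complex of membrane traffic, starts on the other strand within the first part of MCM7. Covered length at MCM7 was 5332 bp in treated and 5687 bp in control cells, 0.94 times as much. The ratio was 0.77 when only intervals of a value of 5 or more were counted, 1.00 with intervals within 1 kb merged and 1.07 within 2 kb of the TSS, so its direction depended on the setting.

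MCM2 was covered over 5206 bp in treated and 4339 bp in control cells, 1.20 times as much. The difference lay upstream, where 2869 bp and 1972 bp were covered, while the transcribed side had 2337 bp and 2367 bp. Upstream intervals of 491 and 511 bp in treated cells, between 4202 and 2667 bp before the TSS, were not overlapped by the control list. Control cells had an upstream interval of 222 bp that the metformin list did not overlap. Within 2 kb of the TSS the MCM2 ratio was 1.03. The interval that begins just inside the gene was 2337 bp long with metformin (chr3:127317311-127319647) and 2164 bp in control (chr3:127317312-127319475), so its first base moved by 1 bp. TPRA1, a gene for a transmembrane protein, starts upstream of MCM2 and runs the other way. The upstream interval had a value of 38.1 within the metformin list, above that of the transcribed side there (32.4), whereas in the control list it had 10.7 and the transcribed side 40.3.

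MCM3 was the only member at least 20% lower in treated cells with all deposited intervals counted, with 3516 bp against 4595 bp covered, 0.77 times as much. The upstream interval accounted for most of it: it was 863 bp long with metformin and 1776 bp in control. The interval over the start of the gene was 2424 bp and 2497 bp long, with values of 39.6 and 40.1 in their lists.

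MCM5 and MCM6 had one long interval on the transcribed side and a shorter one upstream. MCM5 was covered over 2968 bp in treated and 2995 bp in control cells, and its main interval was 2062 bp and 2044 bp long. The MCM5 ratio was 0.99 within 5 kb of the TSS and 1.05 within 2 kb. MCM6 was covered over 4012 bp and 3168 bp, 1.27 times as much. At MCM6 the added length came from 3 short intervals of treated cells, of 173, 207 and 318 bp with values of 1.58 to 2.76, which the control list did not overlap, and from an upstream interval of 848 bp against 468 bp. Counting only intervals of 5 or more brought the MCM6 ratio to 1.05.

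Over these 6 ring genes together, H3K4me3 covered 27.4 kb in treated and 27.1 kb in control cells, a ratio of 1.01. Over the other 4 genes it covered 12.7 kb and 9.03 kb, a ratio of 1.40. Coverage was larger in treated cells at all 4 when all deposited intervals were counted, as in 67.4% of the windows with values of 10 or more. With intervals of a value of 5 or more, the ratios were 1.49 at MCM10, 1.56 at CDC6, 1.09 at PCNA and 0.89 at E2F1. No background was computed for sets of this size. The division by role was made with these values known and was not tested.

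MCM10 and CDC6 had the lowest coverage and the largest ratios. MCM10 was covered over 2635 bp in treated and 1475 bp in control cells, 1.79 times as much. Its main interval began 33 bp inside the gene with metformin and 83 bp inside in control, and was 1661 bp and 1241 bp long. Treated cells also had an interval of 192 bp upstream of the MCM10 TSS (chr10:13203099-13203290), with a value of 13.7, where the control list held none within the 5 kb before the TSS. It was the only one of 17 metformin intervals with a value of 10 or more near these TSSs that lacked a control partner; over the whole metformin list 98.4% of such intervals had one.

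At CDC6, which encodes the loader of the MCM ring, H3K4me3 lay almost wholly inside the gene. The covered length was 2676 bp in treated cells and 1778 bp in control cells, 1.51 times as much, of which 5 bp and 12 bp lay upstream. The main interval began at nearly the same base, chr17:38444141 with metformin and chr17:38444134 in control, and ended 2200 bp and 1401 bp inside the gene. The ratios of MCM10 and CDC6 were 1.49 and 1.56 when only intervals of a value of 5 or more were counted. Within 2 kb of the TSS they were 1.28 and 1.42. With intervals within 1 kb merged they were 1.93 and 1.14, so their size depended on the setting.

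PCNA had most of its H3K4me3 upstream. Of 3658 bp covered in treated cells 2530 bp lay upstream, and of 2786 bp in control cells 1843 bp did. CDS2, which encodes an enzyme of phosphatidylinositol synthesis, starts on that side and runs the other way. The upstream interval was 2129 bp long with metformin and 1677 bp in control, with values of 48.2 in the metformin list and 12.0 in the control list. The highest value in the window exceeded 93.3% of the metformin list and 67.6% of the control list; ranks in lists of different length do not measure a change of the mark. The covered length ratio was 1.31, and 1.09 with intervals of 5 or more.

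E2F1 had the widest gap at a TSS among these genes in both lists. The interval inside the gene began 511 bp from the TSS with metformin and 475 bp in control, and the upstream interval ended 270 bp and 288 bp before it. The gap between them was 780 bp and 762 bp wide. Covered length was 3705 bp and 2986 bp, 1.24 times as much, and 0.89 times with intervals of 5 or more. Treated cells had 3 short intervals there with values from 1.37 to 3.76, and control cells had none under 5. The control interval of 2357 bp overlapped part of the treated interval of 428 bp, which the limit of 5 leaves out.

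The upstream share of the covered length is listed here by the arrangement of neighbouring genes, and a link between them was not tested. Upstream length was not divided between a gene and its neighbour. At the 3 genes whose upstream neighbour is transcribed in the opposite direction (MCM2, MCM4 and PCNA, the arrangement at MCM4 being general knowledge), 55.1% to 69.2% lay upstream in treated and 45.4% to 66.2% in control cells. At the other 7 genes it was 0.19% to 42.6% in treated and 0% to 38.7% in control cells. MCM7 was placed with these 7, although AP4M1 starts on the other strand inside it. No upstream share was computed over other promoters, so nothing is read from the separation of 3 and 7 genes. The lowest shares were those of CDC6 and MCM10, and the highest of the 7 were MCM7 with metformin and MCM3 in control. The sets were formed with the values known and were not tested.

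A gap at or within 100 bp of the TSS was found in both lists at 6 genes, MCM2, MCM3, MCM5, MCM6, PCNA and E2F1. Its median width was 274.5 bp in treated and 339 bp in control cells, and it was narrower in treated cells at 5 of the 6. Of 5303 gaps of 150 to 1000 bp between intervals of 400 bp or more, paired between the lists across the genome, 69.8% were narrower with metformin, with medians of 280 bp and 332 bp. At MCM6 the gap was 182 bp wide in treated and 248 bp in control cells, and at MCM3 302 and 348 bp. The edge at the gap stood on different sides of the TSS in the 2 conditions at both genes: the transcribed-side interval reached 14 bp upstream of the MCM6 TSS and 17 bp upstream of the MCM3 TSS with metformin, and began 7 and 18 bp inside the genes in control. At MCM4 the 2 control intervals were 1 interval across the TSS in treated cells. In all, the TSS base was inside an interval at 5 genes in treated cells (MCM3, MCM4, MCM6, MCM7 and CDC6) and at 2 in control cells (MCM7 and CDC6). Within 50 bp of the TSS the numbers were 7 and 5. No share over other TSSs was available to set beside these counts or the count of gaps. Across all windows centred on H3K4me3 sites, covered length was 1.13 times as large in treated cells.

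Edges that faced the gap differed less between conditions than the far edges of the same intervals, but the choice of gaps favours this. The gaps had to lie at or near the TSS in both lists, or to overlap between the lists across the genome. That limits how far the near edges can differ and leaves the far edges free. The shifts below therefore cannot show that near edges are the steadier ones. Over the 12 intervals that flank these 6 gaps, the edge at the gap differed by a median of 35.5 bp between the lists and the far edge by 223.5 bp, and the near edge differed less in 9 of the 12. Across the genome the medians were 29 bp and 236 bp, and the near edge differed less for 80.6% of 10606 intervals. The largest near shift was 248 bp, upstream of PCNA, and the largest far shift 924 bp, upstream of MCM3. The stretch printed above for MCM3, MCM6, PCNA and E2F1 ends at the RefSeq start, whose identity with the hg19 TSS was not established.

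**Figure D3:**
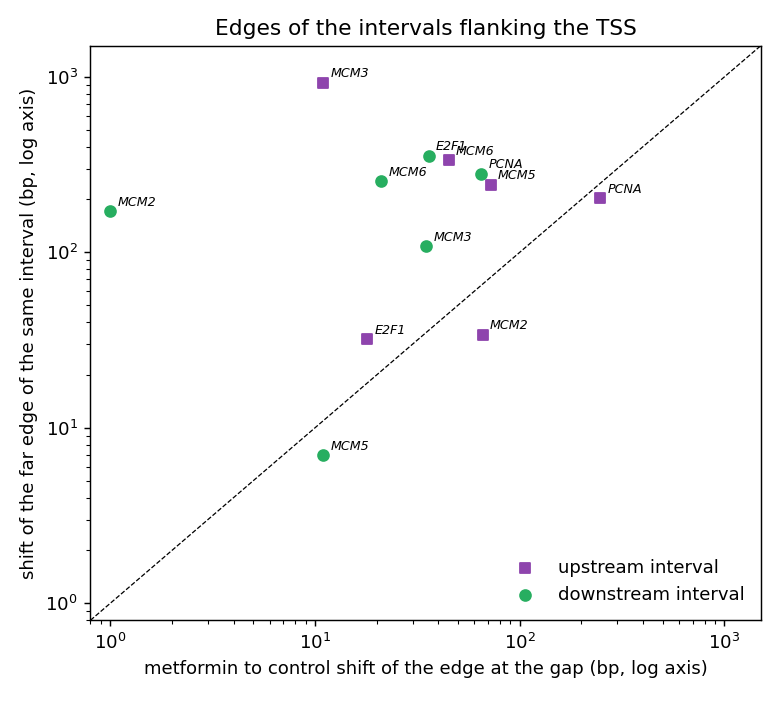
Shift in bp between metformin and control of the edge that faces the TSS gap (horizontal, log axis) against that of the far edge of the same interval (vertical, log axis), for the 12 intervals flanking the gap at 6 genes, with squares for upstream and circles for transcribed-side intervals. Points above the dashed line of equal shifts, 9 of the 12, are intervals whose far edge differed more. Choosing gaps present in both lists limits the shift of the near edge only.

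H3K27me3 was not called in the window of any of the 10 genes in either condition (0 of 10 in each, which allows up to 30.8% by the exact Clopper-Pearson 95% interval). Of the windows with values of 10 or more, 10.3% held H3K27me3 in treated and 8.53% in control cells, and of all windows 13.3% and 11.5%, so few members or none would be found at those shares too. The nearest H3K27me3 interval lay 28.2 kb from the MCM3 TSS in treated cells and 27.8 kb in control cells, the shortest distances of the set. MCM2, with 28.5 and 29.2 kb, and MCM4, with 28.4 and 30.4 kb, came next. The longest distances were at E2F1, 182.7 and 180.8 kb, and CDC6, 170.8 and 178.1 kb. Over the windows with values of 10 or more the median distance was 69.0 kb in treated and 78.3 kb in control cells, within the range of the 10 genes. It follows from these distances that no interval of the 2 marks overlapped within 5 or 10 kb of any of these TSSs.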

How the data were processed

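The authors deposited 1 peak list per ChIP library; neither input library was used. Trimmomatic 0.38, Bowtie, MACS2 and hg19 (GRCh37) are named in the submitters' processing notes, without options or the background library. The value per peak in the deposited lists was taken to be −log10 q. That reading is inferred: the H3K4me3 lists start at 1.31, just above the −log10 of q = 0.05 (1.30), and the H3K27me3 lists at about 1. Peaks were called per library. Read depth is unknown, and deeper sequencing can lengthen a list.

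Lines sharing an interval (sub-peaks) were joined and given their highest value. Covered length was counted in windows of 5 kb on each side of a TSS, and an overlap of 1 bp counted as shared. The same was computed for 10 kb windows centred on every merged H3K4me3 site. Strands of MCM4 and MCM5 are general knowledge; the others were checked against RefSeq. All 10 members are named. The members, their roles, the gap analysis and the limit of 10 were chosen with earlier results of these data known. Alternatives were other window sizes, folds, value limits, overlaps, merging within 1 kb and equal list length. The window code was tested on simulated data. Python 3.11.15, pandas 2.3.3, numpy 2.4.6, scipy 1.17.1 and matplotlib 3.10.9 were used.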

Additional observations from a re-analysis of the deposited data

How the results depend on the processing

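No paired analysis was possible because each mark and condition had a single library, so no replicate could be left out either. Equal list length, merging for the TSS count and the 50 bp margin were chosen after seeing the data. The summed H3K4me3 coverage ratio of 1.11 became 1.07 within 2 kb, 1.12 within 10 kb, 1.01 at a deposited value of 5 or more, 1.15 with intervals within 1 kb merged and 1.09 with lists of equal length. The 4 genes at least 25% higher became 2 within 2 kb (MCM10 and CDC6) and 2 at a fold of 1.5 (the same genes), and 3 within 10 kb, with lists of equal length and at 5 or more. At 5 or more these were MCM2, MCM10 and CDC6, where 30.3% of the windows with values of 10 or more were higher. The 1 gene at least 20% lower became 2 at 5 or more (MCM3 and MCM7, against 7.02% of those windows) and 0 at a fold of 1.5. The ratios of MCM5 and MCM7 were above 1 within 2 kb (1.05 and 1.07), that of E2F1 was below 1 at 5 or more (0.89), and that of MCM4 with merging (0.97). Sharing of intervals became 85.7% (metformin) and 95.0% (control) at 5 or more, against 90.0% and 95.6% over the whole lists, and 100% of 18 control intervals within 2 kb. The TSS base inside an interval, 5 genes with metformin and 2 in control, became 10 and 9 with merging, and 5 in control with the margin of 50 bp. Counts of H3K27me3 were 0 within 2 and 10 kb and at a value of 1.5 or more. These settings could give no other count, since the nearest interval to any of the TSSs lay 27.8 kb away. The unknown depth limits what the short, low-valued intervals can show.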

Other observations

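The number of H3K4me3 sub-peaks, which the peak caller separates inside an interval, was close in both conditions. It came to 105 with metformin and 99 in control over the 10 genes, 76 and 73 of them at the ring genes. MCM4 had 18 in each, as 1 interval with metformin and as 2 in control. MCM10 had 5 and 2, and MCM6 12 and 9. H3K4me3 on the transcribed side of the 10 TSSs summed to 24.7 kb with metformin and 23.6 kb in control, and upstream to 15.3 kb and 12.5 kb.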
